A study of Mus musculus with 4 samples.

Results

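The expression tables of 4 mouse testis libraries list 4194 entries, most of them short, whose names are the letters DQ followed by digits, out of 112302 entries in all. The rule that defines them reads the form of the name and no measured value. Total RNA of BALB/C testis, bought from a supplier, was sequenced after removal of ribosomal RNA and selection of polyadenylated RNA. Synthetic spike-in RNA was added and the library kit kept the strand. Ages were embryonic days 14 and 18 (E14 and E18) and, after birth, 3 weeks and 6 months, each with 1 library. The labels give no genotype or treatment, so the groups differ by age, and they do not say how many animals went into a library. Levels are in RPKM, reads per kilobase of the entry scaled to the depth of the library. No stage was replicated, so "higher" and "lower" describe these libraries and no p-value was computed.

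Names of this form are GenBank accession numbers. GenBank holds long runs of DQ numbers for piRNA sequences cloned from mouse testis, although the files do not say what each entry is, and the entries are therefore called DQ entries here. As background, piRNAs are small RNAs bound by PIWI proteins in germ cells. Most of those in the adult mouse testis are cut from long, polyadenylated single-stranded precursor RNAs that spermatocytes begin to make when they reach the pachytene stage of meiosis, while an earlier set, bound by Piwil2 and Piwil4, silences transposons in fetal germ cells. Mature piRNAs have no poly(A) tail and their precursors do. Which of the 2 gave the reads counted here was not tested.

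The DQ numbers fell into 2 long runs and 5 short ones. The first long run, DQ539900 to DQ569881, held 1379 entries, and the second, DQ684682 to DQ727348, held 2805. The other 10 entries lay outside both. Of all 4194 names, 3 were found in the GENCODE vM21 annotation of GRCm38, the assembly also called mm10. These were DQ267100, DQ267101 and DQ267102, which are small nucleolar RNAs (snoRNAs), RNAs that guide chemical modification of other RNAs or whose targets are unknown. All 3 lie on the plus strand of chromosome 12 inside Rian, a noncoding host RNA of the imprinted Dlk1-Dio3 region that is made from the maternal chromosome. DQ267100 is at chr12:109649617-109649688 and DQ267101 at chr12:109651424-109651496, both overlapping an annotated exon of Rian, and DQ267102 is at chr12:109656345-109656416, in an intron. Their sequences, from GENCODE, are shown because they are the members with an annotated identity, and they include those with the highest ratio of fetal to postnatal level. Capitals mark the letters TGATGA, the core of the C box, and the last CTGA, the D box, which together define this snoRNA class.
DQ267100: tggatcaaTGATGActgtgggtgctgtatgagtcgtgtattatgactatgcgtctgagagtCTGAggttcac
DQ267101: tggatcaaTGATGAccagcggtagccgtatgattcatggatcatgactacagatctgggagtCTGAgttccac
DQ267102: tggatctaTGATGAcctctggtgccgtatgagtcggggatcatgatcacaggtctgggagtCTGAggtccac
The motifs were searched on the RNA strand alone and did not overlap. TGATGA began at base 9 in all 3, and the last CTGA at base 62 in DQ267100 and DQ267102 and at base 63 in DQ267101. The 3 RNAs were 76.7% to 83.6% identical to each other over 73 aligned positions. Of 278 annotated mouse snoRNAs of 65 to 80 nt, 80.9% held TGATGA and 94.6% held CTGA.

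Most DQ entries were about as long as a piRNA or a little longer. The RPKM values were whole multiples of what 1 read is worth, which gave back the reads and the model length of each entry (the smallest whole numbers that fit, so a length may come out as a fraction of the true one). The most frequent length was 31 nt, with 335 entries, followed by 30 nt with 294 and 29 nt with 287. In total, 1393 entries (33.2%) had 26 to 33 nt, 1124 had 34 to 50 nt, 948 had 51 to 100 nt, 146 had 101 to 300 nt and 47 had more than 300 nt. Another 508 had a recovered length of 25 nt or less, where the true length may be a multiple and the reads more than stated. For the 3 snoRNAs the recovered lengths, 72, 73 and 72 nt, equalled the annotated ones. In an entry of 30 nt, 1 read was worth 0.857, 0.974, 0.982 and 0.931 RPKM in the libraries ordered by age, so a level near 1 RPKM can rest on a single read. Reads longer than an entry can overlap it in part, so levels of short entries are not comparable per length with those of messenger RNAs.

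**Figure D1:**
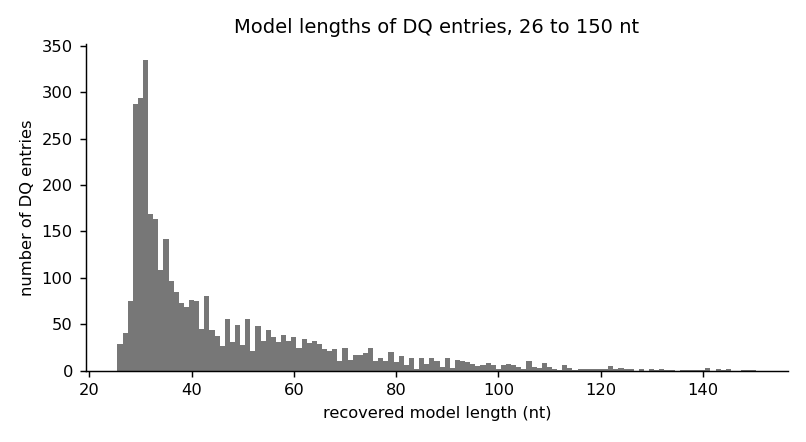
Number of DQ entries (vertical axis) by recovered model length in nucleotides (horizontal axis), for lengths of 26 to 150 nt. Bars peak at 31 nt, with 335 entries, and a long tail reaches past 100 nt.

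Nearly all DQ entries were detected after birth and few before it. The fetal libraries held reads of 287 (E14) and 347 (E18) DQ entries, and the postnatal ones of 4149 (3 weeks) and 4104 (6 months). By age, these were 6.84%, 8.27%, 98.9% and 97.9% of DQ entries, against 66.2%, 69.8%, 76.3% and 73.6% of all other entries. At least 10 reads were counted for 44 and 41 entries before birth and for 3513 and 2547 after it. The median DQ entry stood at 0 RPKM in both fetal libraries, at 19.8 RPKM at 3 weeks (quartiles 10.9 and 31.7) and at 8.86 RPKM at 6 months (quartiles 4.51 and 15.4). In the plot of levels by stage, DQ entries sit in the lowest bin at both fetal stages and form a single broad hump at both postnatal ones, while all other entries keep much the same shape. A total of 3617 entries (86.2%) were at 0 in both fetal libraries and above 0 in both postnatal ones, and 28 were at 0 in all 4. Another 134 had reads in all 4 libraries, and 53 of the 4194 never reached 1 RPKM, the 28 included. Of the 10 entries outside the long runs, DQ072390, DQ072391 and DQ907162 had no read and DQ874391 had 1 read in each postnatal library, and the other 6 are described with their values where they stand apart.

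**Figure D2:**
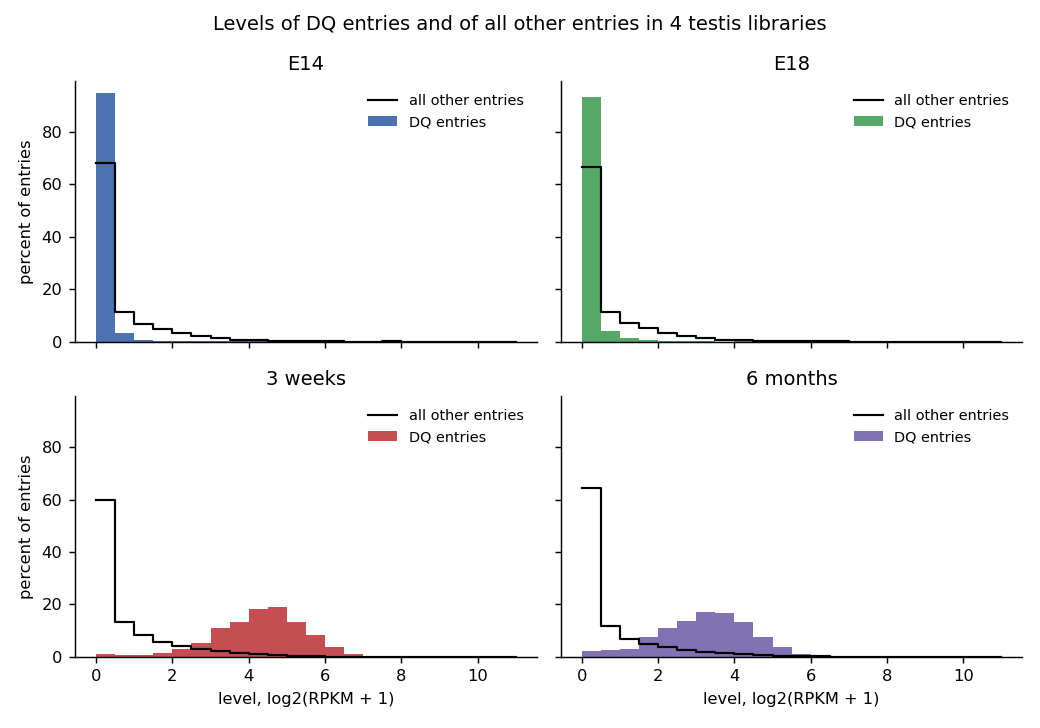
Percent of entries (vertical axis) by level, log2(RPKM + 1), in bins of 0.5 (horizontal axis), 1 panel per library. Bars are the 4194 DQ entries and the black line all other entries. The median DQ entry moves from 0 RPKM at E14 and E18 to 19.8 at 3 weeks and 8.86 at 6 months.

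Summed over DQ entries, the level was 1620.3 and 1975.7 RPKM in the E14 and E18 libraries, 104824.8 in the 3-week library and 49260.7 in the 6-month library. The fetal sums came from few entries: the 10 highest held 72.6% of the E14 sum and 73.5% of the E18 sum, against 2.63% at 3 weeks and 2.37% at 6 months. By age, reads counted for DQ entries came to 0.0687%, 0.0977%, 0.661% and 0.275% of the library, and whether a read in overlapping entries was counted more than once is not given in the sources used here. A single entry, DQ539915, weighed heavily in these shares, and without it they were 0.0163%, 0.0186%, 0.442% and 0.207%. Of entries with at least 1 RPKM, DQ entries made up 0.366% and 0.499% in the fetal libraries and 12.4% and 13.5% in the postnatal ones.

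Cell type markers differed between the same libraries. The 8 spermatocyte markers (Sycp1, Sycp3, Hormad1, Dmc1, Spo11, Syce1, Hspa2 and Ldhc) summed by age to 2.25, 6.80, 736 and 655 RPKM. The 5 elongating spermatid markers summed to 1.27, 1.90, 10.3 and 5957.6 RPKM and the 5 round spermatid markers to 0.864, 0.925, 128 and 341. Spermatogonial markers ranged from 3.95 to 16.8, Sertoli cell markers from 9.88 to 91.5 and Leydig cell markers from 8.02 to 552, each lowest at E14. Markers of other tissues were present as well: liver (248 RPKM), skeletal muscle (159) and cartilage (46.3) at E14, liver (48.7), bladder (25.4), skeletal muscle (22.8) and kidney (17.7) at E18, and epididymis (43.9) at 3 weeks. In the E14 library, labelled testis, the liver and muscle sums stood above that of the Sertoli markers (9.88). Their part in the differences between DQ levels was not tested, and in bulk RNA, fewer cells of a type and less RNA per cell cannot be told apart.

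Between E14 and E18 the DQ entries were mostly undetected in both libraries, and the differences seen were small in reads. Differences are of log2(RPKM + 1), later minus earlier stage, over entries of at least 1 RPKM in a library (4141 DQ entries and 42964 in all), and a size of at least 1, or 2-fold on that scale, is called. Of the 4141, 46 (1.11%) were higher at E18, against 2.17% of all entries, and 17 (0.411%) were lower, against 1.34%. Among these, 42 of the 46 and 16 of the 17 had fewer than 10 reads in both libraries. Among the 3590 DQ entries with at least 10 reads in some library, 31 were higher, against 1.3% of all entries, and 10 were lower, against 0.762%. The split of 73.0% higher among called entries was 44.8% after rescaling over ribosomal protein genes (13 and 16) and 54.2% after rescaling by the median of ratios (26 and 22), so no direction held across scalings.

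The largest differences to E18 illustrate how few reads were involved, and those named here are among entries with a mean of at least 5 RPKM. DQ701583 had 0 reads at E14 and 4 at E18 (4.03 RPKM), and it then stood at 30.5 RPKM at 3 weeks and 13.5 at 6 months. DQ709577 had 3.95 RPKM at E14 (4 reads), 19.1 at E18 (17 reads), 9.06 at 3 weeks and 2.15 at 6 months, a log2 difference of 2.02 to E18, with a counting interval of the E18 to E14 ratio from 1.58 to 19.7. It was thus the member of this group whose interval lay above 1, while DQ707295 (0.918 and 5.22 RPKM, 1 and 5 reads) had an interval from 0.636 to 269. The other 3 largest, DQ565977, DQ691372 and DQ686744, had 0 reads at E14 and 1 to 3 at E18. Under the same limit, the 6 largest decreases had between 2 and 11 reads at E14 and 0 to 3 at E18, led by DQ711310 (3.81 and 0 RPKM, 4 and 0 reads). All of these 6 had ratio intervals that included 1.

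From E18 to 3 weeks nearly every DQ entry was higher. At 3 weeks 4049 of 4141 entries (97.8%) passed the 2-fold limit upward and 14 (0.338%) downward, with a median log2 difference of 4.35 (quartiles 3.54 and 5.01). Among all 42964 entries, 32.0% were higher and 10.5% lower, with a median of 0.46. Adding 1 before log2 shrinks the differences of low entries, so these shares depend on level. DQ entries made up 4049 of the 13742 higher entries of the whole table (29.5%). Without them, 68.2% of the called entries in this comparison were higher, against 75.2% with them. Requiring at least 10 reads in a library left 3590 DQ entries. Of these, 3532 (98.4%) were higher, against 19.8% of all entries, and 11 were lower, against 6.8%. Most DQ entries passed either filter through a postnatal library, which favours a call of higher at 3 weeks. Before birth, 47 DQ entries had at least 10 reads in a library, and 81 (E14) and 118 (E18) reached 1 RPKM. The stricter filter is therefore no separate support. With no filter, 4049 of 4194 were higher.

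Other short entries had values of another kind. Entries outside the DQ group with a recovered length of 26 to 100 nt, a comparison chosen after values had been seen, numbered 920. Of these 247 (26.8%) were higher at 3 weeks and 176 (19.1%) lower, with a median of 0.01. DQ entries of the same lengths were higher in 3389 of 3447 cases (98.3%). MicroRNA genes, named MIR with a number, numbered 275, with 64 higher, 73 lower and a median of -0.34. Of 14729 entries with NONCODE names, a database of noncoding RNAs, 3653 were higher and 1252 lower (median 0.41). These counts set groups of one table side by side and were not tested.

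The largest increases reached well over 100 RPKM from no reads before birth. DQ721567 (30 nt) had 0 reads at E14, 0 at E18, 178 RPKM at 3 weeks (181 reads, interval 153 to 206) and 50.3 at 6 months (54 reads). Against a floor of 3 reads at E18, it was at least 60.8-fold higher at 3 weeks, a point value whose E18 side is the floor, and the exact 95% counting interval of the ratio began lower, at 48.96. DQ708261 (30 nt) stood at 0, 0, 173 and 36.3 RPKM and was at least 59.1-fold higher against the same floor, with a counting interval that began at 47.6. DQ702357 stood at 0, 0, 163 and 45.1 RPKM, DQ699514 at 0, 0, 158 and 52.97, DQ696217 at 0, 0, 156 and 55.9, and DQ693418 at 0, 0, 154 and 27.9. All 6 were at 0 in both fetal libraries, highest at 3 weeks and lower again at 6 months. DQ696217 had a recovered length of 10 nt, so its reads (53 at 3 weeks) may be understated.

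Between 3 weeks and 6 months most DQ entries were lower, many of them past the 2-fold limit. Of 4141 DQ entries, 2141 (51.7%) were lower at 6 months and 34 (0.821%) were higher, with a median log2 difference of -1.04 (quartiles -1.59 and -0.49). Of all entries, 14.1% were lower and 9.73% higher, with a median of -0.31. Adding 1 before log2 shrinks the differences of low entries. Before any filter, the median entry outside the DQ group stood at 0.211 RPKM at 3 weeks and 0.151 at 6 months. These shares are thus not taken at like levels. With at least 10 reads in a library, 1914 of 3590 DQ entries were lower, against 8.6% of all entries, and 17 higher, against 6.25%. That many reads were counted for 3513 DQ entries at 3 weeks and for 2547 at 6 months. Passing through the 3-week library favours a call of lower, so this filter is no separate support. With no filter, 2141 of 4194 were lower. DQ entries formed 35.3% of the 6062 lower entries of the whole table. Without them 51.4% of called entries were higher at 6 months, against 40.8% with them. The count of lower entries depended on the scale, with 994 lower and 172 higher after rescaling by the median of ratios (14.8% higher among called, against 1.56%) and 550 lower at a limit of 4-fold.

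The ratio between these stages varied among entries. For the 1650 DQ entries with at least 50 reads in the 2 postnatal libraries together, the median ratio of 6 months to 3 weeks was 0.462, which is -1.12 on the log2 scale without a pseudocount. The 5th and 95th percentiles of this log2 ratio were -2.66 and 0.13. Exact 95% counting intervals of the ratio held the common median for 1049 entries (63.6%), lay below it for 311 and above it for 290. If counting were the only error and the factor were shared, about 95% of the intervals would hold it. Entries that overlap may share reads and PCR copies are not separate molecules, so these are not 1650 separate measurements. The interval lay wholly below 1 for 1190 entries and wholly above 1 for 6. Both counts are on the deposited scale. A rescaling of the libraries would shift every ratio by the same factor, and the counts were not repeated under one. Among 37575 other entries with as many reads the median log2 ratio was -0.52 and the 5th and 95th percentiles -2.11 and 2.81.

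**Figure D3:**
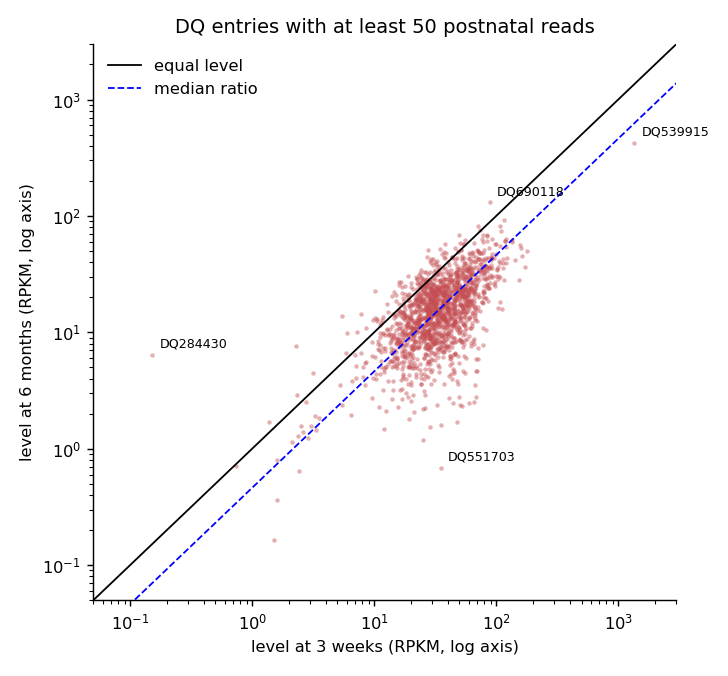
Level at 6 months (vertical axis) against level at 3 weeks (horizontal axis), both in RPKM on log axes, for DQ entries with at least 50 reads in the 2 libraries together and reads in each. The solid line marks equal levels and the dashed line the median ratio of 0.462. Most points lie below the solid line, and DQ284430 stands far above it.

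The 6 entries whose interval lay above 1 included 3 of the longer members with numbers outside the long runs. DQ284430 (582 nt) had levels by age of 0.177, 0.301, 0.152 and 6.43 RPKM, or 4, 6, 3 and 134 reads. It was near the floor at 3 stages and detected well at 6 months alone, with a ratio of 42.4 to 3 weeks (interval 14.2 to 208), the reverse of the usual DQ pattern. DQ072386 (1025 nt) stood at 11.9, 15.3, 5.43 and 13.8 RPKM, and DQ072388 (1024 nt) at 7.43, 7.39, 2.30 and 7.56. Both were lowest at 3 weeks. The other 3 were DQ690118 (ratio 1.48), DQ543750 (2.23) and DQ700189 (1.86). DQ543750 and DQ700189, chosen after their values were seen, stood at 10.2 and 22.8 RPKM and at 27.4 and 51.05 RPKM at 3 weeks and 6 months.

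At the other end were entries with at most 1 read at 6 months. DQ551703 (41 nt) had 0, 0, 35.2 and 0.681 RPKM in order of age, 49 reads at 3 weeks and 1 at 6 months, with a ratio of 0.0194 (interval 0.00048 to 0.113). DQ694702 had 38.6 RPKM at 3 weeks and 0.963 at 6 months, DQ700040 36.1 and 0.901, and DQ558110 32.6 and 0.755, each from 38 to 41 reads to 1. DQ555008 and DQ559176 had 9 recovered reads each at 3 weeks and 0 at 6 months, with recovered lengths of 10 and 11 nt. Among the 1650 entries with at least 50 reads, 243 were at least 4-fold lower at 6 months. By the naming rule the largest increases, besides DQ072388, were DQ689039, DQ714384, DQ558020, DQ543434 and DQ706848, with log2 differences from 1.24 to 1.75 and at most 36 reads at 6 months. Intervals above 1 were found for DQ714384 (5 and 20 reads), DQ558020 (13 and 36) and DQ543434, and not for DQ689039 (2 and 8 reads) or DQ706848.

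By stage of the highest level, 3698 of 4141 DQ entries (89.3%) peaked at 3 weeks, 415 (10.02%) at 6 months, 13 at E18 and 15 at E14. Of all other measured entries, 39.1% peaked at 3 weeks, 25.9% at 6 months, 20.8% at E18 and 14.2% at E14. Rescaling by the median of ratios gave 1285 DQ entries with a peak at 6 months. The 3 highest DQ entries at 3 weeks were DQ539915 at 1357 RPKM, DQ721567 and DQ708261. At 6 months they were DQ539915 at 424, DQ690118 at 131 and DQ560459 at 92.8. The latter (31 nt) had 2 reads at E14, none at E18, 116 RPKM at 3 weeks (122 reads) and 103 reads at 6 months, so its 2 postnatal levels did not differ beyond counting error (ratio interval 0.610 to 1.05).

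The members with fetal signal formed a small and unlike set. A total of 47 entries had at least 10 reads at E14 or E18. They were taken from the fetal reads themselves, so their fetal levels are a description. Of these, 12 were in the first long run, 31 in the second and 4 outside both. Among entries of more than 300 nt, 20 of 47 had fetal signal (42.6%), against 6 of the 1393 entries of 26 to 33 nt (0.431%). Longer entries collect more reads at the same level, so the read limit itself favours them. The 47 entries held 86.3% of the summed DQ level at E14 and 85.3% at E18, and 1.91% and 1.82% of it at 3 weeks and 6 months. In the remaining 4147 entries together there were 412 and 504 reads in the fetal libraries and 145381 and 70749 in the postnatal ones, the fetal sums being bounded by this choice.

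**Figure D4:**
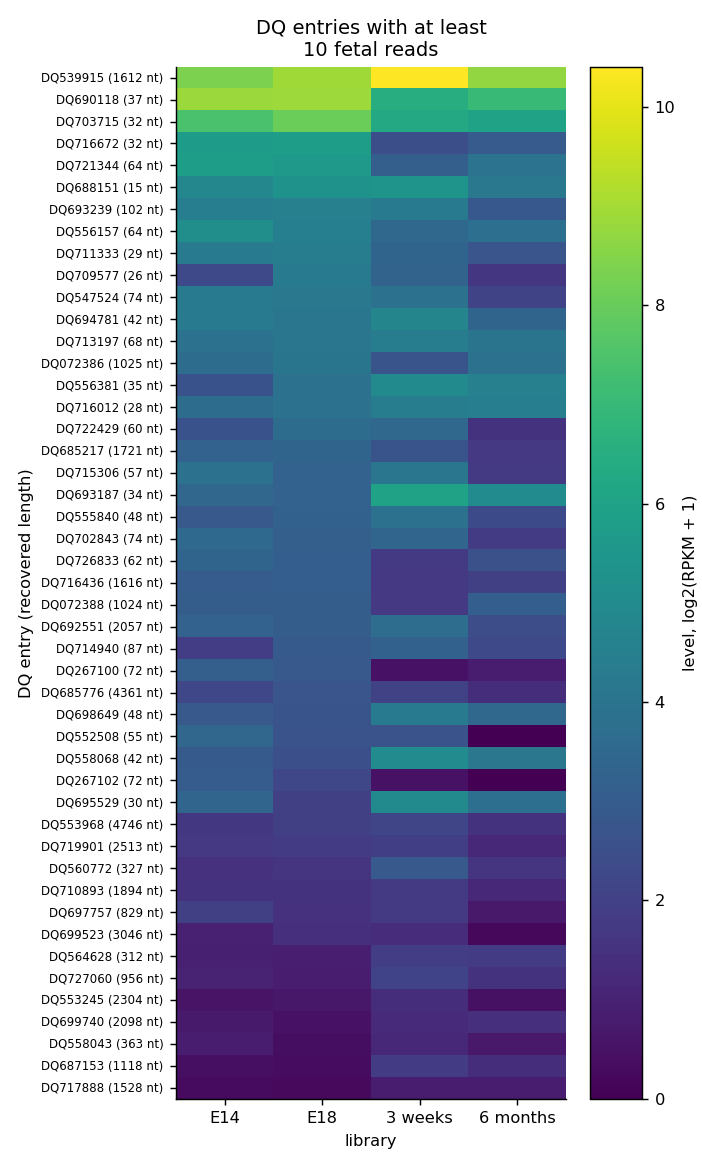
Level, log2(RPKM + 1), as colour in the 4 libraries (columns) for the 47 DQ entries with at least 10 reads at E14 or E18 (rows, ordered by the E18 level, with recovered length in nucleotides). DQ539915, DQ690118 and DQ703715 lead the fetal columns, and the snoRNAs DQ267100 and DQ267102 turn dark after birth.

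Of the 47 entries, 46 reached 1 RPKM in a library and DQ717888 (at most 0.732 RPKM) did not. From E18 to 3 weeks 10 of them were higher and 11 lower (median 0.22), where 32% and 10.5% of all entries were called. The choice by fetal reads bears on these counts, so they are a description and no contrast with the other members is drawn. From 3 weeks to 6 months 2 were higher and 16 lower (median -0.68), against 9.73% and 14.1% of all entries. Their highest level was at 3 weeks in 23 cases, at E18 in 12, at E14 in 9 and at 6 months in 3. DQ539915 (1612 nt) was the most abundant DQ entry overall. Its levels by age were 325, 491, 1357 and 424 RPKM, from 20365, 27081, 74272 and 24484 reads. It was the highest entry at E18, 3 weeks and 6 months, and its 3-week level was 2.76 times that at E18 (interval 2.73 to 2.80).

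Some entries, most of them short, were higher in the fetal libraries. DQ690118 (37 nt) had 453 and 469 RPKM before birth and 88.4 and 131 after it, from 652, 594, 111 and 173 reads. Its 2 fetal levels did not differ beyond counting error (ratio interval 0.925 to 1.16), and the 3-week level was 0.188 of that at E18 (interval 0.152 to 0.231). DQ703715 (32 nt) stood at 170, 267, 76.4 and 62.8 RPKM. DQ721344 (64 nt) stood at 55.4, 46.6, 7.82 and 14.4 RPKM, and DQ716672 (32 nt) at 52.2, 56.6, 4.60 and 6.98. In each of these 4 entries both fetal values lay above both postnatal ones. DQ716436 (1616 nt), at 7.27, 7.54, 2.31 and 2.90 RPKM, had the same order. Rescaling over ribosomal protein genes took the 2 entries DQ703715 and DQ716436 below the 2-fold limit between E18 and 3 weeks (-0.56 and -0.37), as it did DQ699981, which rests on 7 and 2 reads (8.26, 7.30, 2.10 and 2.99 RPKM by age).

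Among entries of at least 5 RPKM before birth, the highest fetal level divided by the highest postnatal one was 17.5 for the snoRNA DQ267102, 10.1 for the snoRNA DQ267100 and 8.11 for DQ716672. DQ267102 had 7.14 RPKM at E14 (20 reads), 3.65 at E18 (9 reads), 0.409 at 3 weeks (1 read) and 0 at 6 months. DQ267100 had 7.85, 6.49, 0.409 and 0.776 RPKM, from 22, 16, 1 and 2 reads, with a 3-week to E18 ratio of 0.0630 (interval 0.0015 to 0.406). DQ267101 had 3.17 RPKM at E14 (9 reads), 0.800 at E18 (2 reads) and no reads after birth. All 3 were thus detected before birth and at or below 2 reads after it. Their host Rian stood at 18.9, 13.6, 0.614 and 0.228 RPKM, in the same order of age, so host and snoRNAs were both far lower after birth. Host and snoRNAs also had their highest values at E14. For the snoRNAs, however, every E18 to E14 ratio interval included 1. These ran from 0.406 to 1.65 for DQ267100, 0.027 to 1.22 for DQ267101 and 0.205 to 1.18 for DQ267102. Whether reads of the host were counted in the snoRNA entries was not tested.

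The 2 long runs of numbers were alike in level. At 3 weeks the median was 18.8 RPKM in the first run (quartiles 10.2 and 31.4) and 20.2 in the second (quartiles 11.5 and 31.98), and at 6 months it was 8.89 RPKM in both. From E18 to 3 weeks 1327 of 1361 entries of the first run (97.5%) and 2722 of 2774 of the second (98.1%) were higher. From 3 weeks to 6 months 649 (47.7%) and 1492 (53.8%) were lower, with medians of -0.94 and -1.07. Entries with at least 50 postnatal reads were put in order of number, and each was paired with the next one kept. Over 538 such pairs of the first run and 1107 of the second, Pearson's r of log2(RPKM + 1) at 3 weeks was 0.00042 and -0.027. Entries of fewer reads were left out first, so paired entries need not have adjacent numbers. Likeness between adjacent numbers was not measured. These pairs share their libraries and are a description.

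Some DQ entries carried exactly the same 4 values as another. There were 181 such sets with values above 0, holding 392 entries, of which 157 were pairs and the largest had 4 members. In 90 of them entries of both long runs were joined, and in 0 were 2 members next to each other in number. Entries of low reads can coincide by having equal small counts. Counting each set once left 3839 of 3930 entries higher from E18 to 3 weeks.

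By length class, the median at 3 weeks was 21.3 RPKM for recovered lengths of 25 nt or less, 22.1 for 26 to 33 nt, 21.6 for 34 to 50 nt, 16.97 for 51 to 100 nt, 15.7 for 101 to 300 nt and 2.53 for those over 300 nt. Median reads ran the other way from 26 nt upward, at 23, 29, 38.5, 64 and 98. Since reads that overlap a short entry in part may be counted, the order of these RPKM values is no ranking of the classes. At 6 months the 5 classes from 26 nt upward stood at 10.6, 9.56, 7.73, 5.49 and 1.65 RPKM. The difference of log2(RPKM + 1) between the 2 stages was similar in the first 4 of these, with medians from -0.98 to -1.11. It was -0.53 in the 47 entries over 300 nt. Adding 1 shrinks differences at low levels, such as the 2.53 RPKM of this last class. Its value is therefore not comparable with the others, and no smaller fall of long entries is read from it.

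Genes of the PIWI pathway were measured in the same libraries. Of 23 listed genes 22 were matched and 21 reached 1 RPKM. Between E14 and E18, 4 were higher (Piwil2, Ddx4, Mael and Fkbp6) and 0 lower, against 2.17% and 1.34% of all entries. From E18 to 3 weeks 20 were higher and 0 lower (median 2.68), against 32% and 10.5%, and Pnldc1, the enzyme that trims piRNA ends, was the one not called (0.67). From 3 weeks to 6 months 1 was higher and 6 were lower (median -0.83), against 9.73% and 14.1%. Mybl1, the transcription factor that switches on pachytene piRNA precursors, stood at 0.393, 1.25, 16.5 and 5.19 RPKM by age. Piwil1, the PIWI protein of pachytene spermatocytes and round spermatids, stood at 0.0254, 0.152, 60.3 and 30.6 RPKM. Its 6-month to 3-week ratio of 0.507 (interval 0.489 to 0.526) lay near the DQ median of 0.462, and that of Mybl1 was 0.314 (interval 0.292 to 0.337).

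The ratio of 6 months to 3 weeks was 0.526 for Piwil2 and 0.511 for the germ cell helicase Ddx4. Other genes, Mael, Gtsf1 and Piwil4 among them, had other patterns. Mael, a germ granule protein needed for precursor processing, stood at 0.366, 8.43, 264 and 245 RPKM, so it was detected at E18 and nearly level after birth. Gtsf1, a partner of PIWI proteins, was higher at 6 months (7.48 and 24.7 RPKM). Piwil4, the nuclear PIWI protein of fetal germ cells, had its highest value at E18 (0.483 RPKM, 89 reads) and 0.104 at 3 weeks. Piwil2 stood at 2.05 RPKM at E18 (344 reads), a stage at which the median DQ entry had no read. In an entry of 30 nt 1 read was worth 0.974 RPKM at E18, so the same level would rest on very few reads. Reads of the gene and of short entries are therefore not comparable. The helicase Mov10l1 (11.4 and 4.15 RPKM at 3 weeks and 6 months) and Asz1, a mitochondrial scaffold (7.95 and 3.06), were lower past the 2-fold limit. So were the Tudor proteins Tdrd1, Tdrd5 and Tdrkh, while Tdrd9, Tdrd12 and Rnf17 were lower within it. Tdrd6 (7.69 and 7.89 RPKM) was about level and Tdrd7 (15.6 and 17.4) slightly higher at 6 months. Pnldc1 (1.27 and 1.25) and Henmt1 (4.26 and 3.66) changed little.

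**Figure D5:**
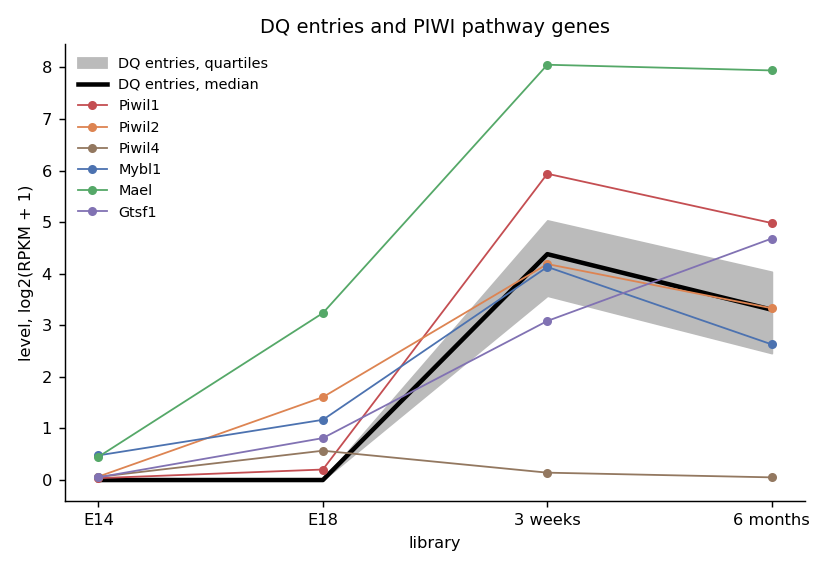
Level, log2(RPKM + 1) (vertical axis), in the 4 libraries (horizontal axis, not to scale in time). The black line is the median and the grey band the quartiles of the 4194 DQ entries, and coloured lines are 6 PIWI pathway genes. The DQ median is 0 RPKM at E14 and E18, and Mael and Piwil2 are above 0 at E18. Low levels of short entries rest on few reads and are not comparable with those of genes.

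Likeness to Piwil1 over the 4 stages separated few DQ entries from each other. Of 2794 entries with distinct values and a mean of at least 5 RPKM, 2699 had a Pearson's r of at least 0.9 with Piwil1 on the log2(RPKM + 1) scale over 4 stages, with a median of 0.995. With 4 points, of which the 2 fetal ones are mostly 0, such values arise readily, and nothing particular to Piwil1 is read from them. The 5 entries most like it were DQ689240, DQ684960, DQ544325, DQ696325 and DQ719413, each with r rounding to 1 and 0 reads in both fetal libraries. DQ689240 (29 nt) stood at 120 RPKM at 3 weeks (118 reads) and 53.9 at 6 months, and DQ696325 (141 nt) at 20.7 and 12.1.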

How the data were processed

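The deposited files give RPKM per entry, computed by the authors. Per the submitters' processing notes, TopHat2 and the mm10 build were used. The sources used here do not give the counter, the annotation, or how strand, multiply mapped and overlapping reads were treated. The 4 files were joined by entry name and samples were grouped by the age label. The RPKM denominators (38903334 reads at E14, 34228140 at E18, 33952471 at 3 weeks, 35801602 at 6 months) were found from 11014 single-exon genes of GENCODE vM21. Whole reads and a shared length up to 200000 bases, at a relative tolerance of 1e-09, were then recovered for all 98242 entries above 0. Intervals are exact Poisson or Clopper-Pearson at 95% and, like the floor of 3 reads, cover counting error only, since PCR copies are not independent molecules.

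Before taking log2, 1 was added to each RPKM, so folds of low entries come out too small. Alternatives were another pseudocount, filter or limit, identical entries counted once, and rescaling of libraries to an equal RPKM sum, by the median of ratios to the geometric mean over libraries, or by the 81 ribosomal protein genes or 16099 protein-coding genes. Named were the 3 highest entries per stage, the 6 largest differences per direction with a mean of at least 5 RPKM, the 3 highest fetal to postnatal ratios among entries of at least 5 RPKM before birth, the 5 entries most like Piwil1, and the pathway genes. Entries outside the long runs or with fetal reads were named after values were seen. The members and lists were chosen with earlier results of these data known. Btbd18 was not matched by name. The procedure was tested on simulated data drawn around the 3-week reads. Calls were judged there in the better-counted DQ entries alone, so calls that rest on few reads were not tested. Python 3.11.15, numpy 2.4.6, pandas 2.3.3 and scipy 1.17.1 were used.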

Additional observations from a re-analysis of the deposited data

How the results depend on the processing

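No paired analysis was possible because each stage has 1 library. The higher count from E18 to 3 weeks (4049) stayed within 1.5 times under every alternative run (3532 to 4106), while the lower count (14) was 4 at 4-fold and 5 under ribosomal protein scaling. From E14 to E18, 46 higher and 17 lower entries became 228 and 144 with a pseudocount of 0.1 and 2 and 3 at 4-fold, the lower count was 10 with at least 10 reads, and the higher count was 26 under an equal sum or the median of ratios, 13 under ribosomal protein scaling and 22 under protein-coding scaling, an alternative added after seeing the data. From 3 weeks to 6 months, 34 higher entries became 17 with at least 10 reads, 2 at 4-fold, 172 under the median of ratios, 66 under ribosomal protein scaling and 86 under protein-coding scaling, and 2141 lower entries became 550, 994 (median of ratios) and 1350 (protein-coding). The median of all entries shifted by -0.20 and 0.38 under the median of ratios in the last 2 comparisons, by 0.68 and 0.10 under ribosomal protein scaling, by -0.09 and 0.25 under protein-coding scaling and by 0.17 and -0.06 under an equal sum. The DQ median from 3 weeks to 6 months was then -0.40, -0.85, -0.63 and -1.12. Shares of all entries called are given for the main limit and the 10-read filter alone, so the other counts stand without one.

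Detected entries at E14 (287) numbered 81 at 1 RPKM, 32 at 5 RPKM and 44 at 10 reads. At E18 (347) they numbered 118, 35 and 41, and at 6 months 2547 at 10 reads. Summed RPKM by age was 670.6, 749.3, 102223.1 and 48247.3 without the 10 highest entries and 1295.5, 1484.9, 103467.8 and 48836.5 without DQ539915 (added later). It was 1435.7, 1851.0, 119509.3 and 53141.9 under an equal sum, 1767.2, 1899.4, 80000.0 and 60780.7 under the median of ratios, 1120.8, 1220.0, 153176.0 and 84389.2 under ribosomal protein scaling and 1755.6, 1859.8, 90541.1 and 57633.6 under protein-coding scaling. Identical entries counted once gave 101393.9 at 3 weeks and 47668.3 at 6 months. The 15 entries with a peak at E14 became 9 with at least 10 reads and 25 under the median of ratios, the 13 at E18 became 1 under ribosomal protein scaling and 21 with E14 left out, and the 415 at 6 months became 1285 and 647 under these 2 scalings. Of 391 values of named entries under the alternatives, 370 kept direction and call, 21 lost the call (18 at 4-fold) and 0 changed direction. Filters, the 4-fold limit and counting identical entries once leave a difference as it is, so a direction could change only under another pseudocount or a rescaling. Named entries that failed a filter were left out of these values, and they had been picked as the largest differences. The counts are therefore no measure of how stable DQ entries are in general. The causes of these shifts were not tested.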
